A study of Drosophila melanogaster with 4 samples.

Results

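The H3K9me3-enriched clusters scattered along the left arm of chromosome 3 (3L) were described in head nuclei of adult flies (Drosophila melanogaster). The members are all clusters that lay wholly on 3L from 300001 to 22543557 (FlyBase release 5, 1-based). These limits leave out the distal 300 kb of the arm and the 2 Mb next to its centromere end. Of all deposited clusters, the members were 472 of 5083 in replicate 1, 393 of 4595 in replicate 2 and 969 of 7929 in the list of the whole series, called the combined set here. No cluster crossed either limit in any list. The clusters just inside the distal limit started at 344228 in replicate 1 (1669 bp, score 0.514) and 344203 in replicate 2 (2281 bp, score 0.582), and the last ones outside it started at 220634 (2861 bp, score 0.813) and 220542 (2860 bp, score 0.647). At the proximal limit the last members ended at 22498600 (2411 bp, score 0.679) and 22497590 (1521 bp, score 0.709), and the next clusters outside started at 22704164 (2768 bp, score 0.775) and 22704189 (2294 bp, score 0.912).

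H3K9me3 is a trimethylated lysine in the tail of histone H3, set in Drosophila by methyltransferases that include Eggless and the product of a Suppressor of variegation gene. It is bound by heterochromatin protein HP1a and is known mainly from the repeat-rich chromatin around centromeres and on chromosome 4. On the gene-rich arms the mark is known at transposable element insertions and at some genes, in places set apart from the pericentric block.

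The study used the wild-type Oregon-R strain, with adults of mixed stage and no sex given in the labels. The flies were kept in population cages, heads were collected with sieves and crosslinked with formaldehyde, and no cell type was sorted, so each list is a mean over all cells of the head. There were 2 ChIP libraries, each with a cluster list, and 2 input libraries, whose signal was not analysed here. The labels do not say whether the replicates came from separate collections, and the SD between them may be technical. The lists hold positions and scores with no gene or expression values, so the head label could not be set against marker genes, and sequencing depth is unknown.

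Clusters covered a small part of the interval in both replicates. Of the interval, replicate 1 clusters covered 4.85%, replicate 2 clusters 3.98% and those of the combined set 9.64%. The proximal 2 Mb of the same arm, outside the interval, was 64.3% covered in replicate 1 and 66.7% in replicate 2. The limits leave out this block, so the contrast with it was built into the choice of interval. The interval made up 90.6% of the length of 3L but held 45.5% of the arm's cluster sequence in replicate 1 and 39.8% in replicate 2. Replicate 1 had 21.2 clusters per Mb and replicate 2 had 17.7, a mean of 19.4 per Mb ± 2.51 (SD, n = 2); every SD below is also over the 2 ChIP libraries. The combined set had 43.6 per Mb.

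Most of the clusters were narrow. The width had a median of 1934 bp in replicate 1 and 1900 bp in replicate 2, a mean of 1917 bp ± 24.0. The middle 50% of widths ran from 1595 to 2453 bp in replicate 1 and from 1532 to 2512 bp in replicate 2. No member of either replicate was narrower than 1301 bp, and none of the combined set was narrower than 1001 bp, so narrower enrichment is not represented in these lists. Clusters of at least 3 kb numbered 73 (15.5%) in replicate 1 and 66 (16.8%) in replicate 2. They held 30.2% and 31.5% of the cluster sequence. Clusters of at least 5 kb numbered 16 and 12, and the widest measured 12992 and 8428 bp.

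The score that the authors gave each cluster had a median of 0.612 in replicate 1 and 0.631 in replicate 2. The middle 50% of scores ran from 0.538 to 0.698 in replicate 1 and from 0.553 to 0.734 in replicate 2. A score of at least 1 was reached by 15 clusters (3.18%) of replicate 1 and 23 (5.85%) of replicate 2. These were wider than the rest, with a median of 3506 bp against 1921 bp in replicate 1 and 3054 bp against 1885 bp in replicate 2. Wider clusters tended to have the higher scores, with a Spearman correlation of 0.608 over 472 clusters in replicate 1 and 0.582 over 393 in replicate 2. The points of each correlation come from 1 library, and both measures are read from the same enrichment profile.

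Spacing was uneven: many clusters lay close to a neighbour and a few were separated by very long gaps. The gap from 1 cluster to the next had a median of 17353 bp in replicate 1 and 22047 bp in replicate 2 (19700 bp ± 3319), and a mean of 44.7 and 54.3 kb. Gaps of at most 10 kb made up 36.9% of all gaps in replicate 1 and 33.2% in replicate 2, and gaps of at most 1 kb made up 8.92% and 10.2%. At the other end, 68 gaps in replicate 1 and 74 in replicate 2 were over 100 kb, and 15 and 19 were over 200 kb. Clusters with more than 50 kb free on both sides numbered 40 (8.47%) in replicate 1 and 58 (14.8%) in replicate 2. In the combined set, with more clusters on the same length, the median gap was 7069 bp, and 38 gaps were over 100 kb.

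**Figure D1:**
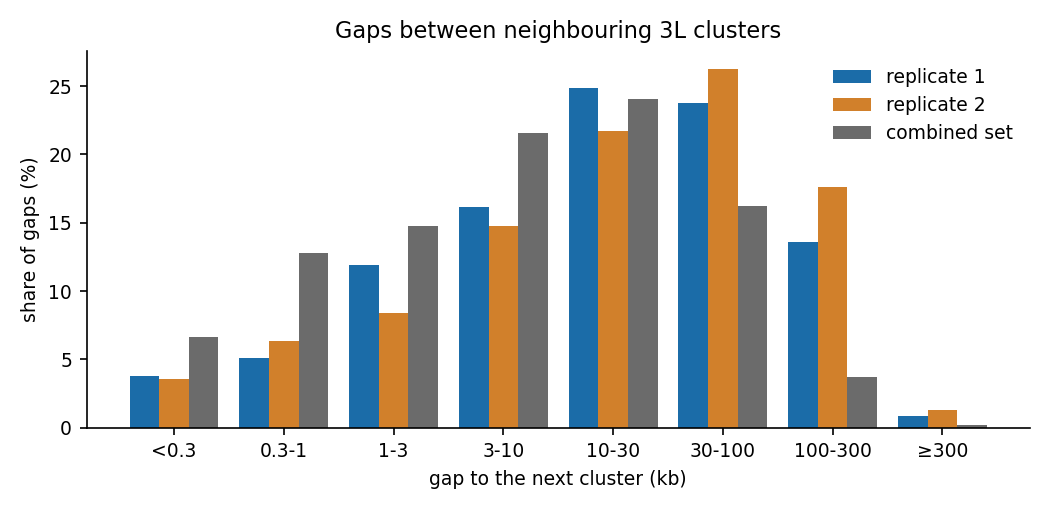
Share of gaps (y axis, %) in each class of gap length between neighbouring 3L clusters (x axis, kb, classes of unequal width) for replicate 1, replicate 2 and the combined set. In replicate 1 the largest class was 10 to 30 kb with 24.8% of gaps, in replicate 2 it was 30 to 100 kb with 26.3%, and the combined set had 12.8% of its gaps from 0.3 to 1 kb.

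Many clusters stood in runs, defined as at least 3 successive clusters with gaps of at most 10 kb. Replicate 1 had 40 runs with 153 clusters (32.4%), and replicate 2 had 30 runs with 120 clusters (30.5%). A further 61 and 40 groups held 2 clusters, and 197 (41.7%) and 193 (49.1%) clusters stood alone at this limit. Runs were short, with a median of 3 clusters and a median span of 16921 bp in replicate 1 and 17285 bp in replicate 2. Clusters filled a median of 51.5% and 53.6% of the span of a run. Clusters in runs were close in width and score to those outside them: the median widths were 1972 and 1929 bp in replicate 1 and 2003 and 1870 bp in replicate 2, and the median scores were 0.615 and 0.610 in replicate 1 and 0.633 and 0.630 in replicate 2. The number of runs depends on the gap allowed, and with 5 kb or 20 kb in place of 10 kb the share of clusters in runs was 20.8% or 51.0%.

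Runs were partly shared. Of the 40 runs of replicate 1, 22 (55.0%) overlapped a run of replicate 2, and 39 overlapped at least 1 cluster of it. Of the 30 runs of replicate 2, 21 (70.0%) overlapped a run of replicate 1, and all 30 overlapped a cluster. Single clusters had a match in 60.2% of cases in replicate 1 and 73.3% in replicate 2. With at least 3 clusters in a run, overlap with at least 1 cluster therefore says little about runs. Shares of runs were not computed over all sequences. Runs of at least 5 clusters numbered 8 in each replicate.

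The largest replicate 1 run that replicate 2 shared lay from 8624728 to 8654594, with 8 clusters over 29867 bp and a median score of 0.613. Replicate 2 had 6 clusters from 8628755 to 8653508 there, with a median score of 0.657. The next, from 6953022 to 6986348, had 7 clusters in replicate 1 and 5 in replicate 2. A run from 1230343 to 1257289 had 6 clusters in both replicates, with outer ends in replicate 2 at 1231684 and 1257315. A run of 6 clusters from 19661761 to 19701984 was met by a replicate 2 run of 5 from 19657079 to 19679107. The runs ended apart on the centromere side, but replicate 2 also had a cluster there, outside its run. It overlapped the last cluster of the replicate 1 run, and the 2 together spanned 19699144 to 19702012. The run from 12429257 to 12455361 had 5 clusters in replicate 1 and 3 in replicate 2.

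The run with the most clusters in replicate 2, named after its values were seen, lay from 8986528 to 9042079 and had 10 clusters over 55552 bp. Replicate 1 had 6 clusters there, in 2 runs. The covered share of that stretch was 48.2% in replicate 1 and 52.2% in replicate 2. The first replicate 1 run ended at 9013275 and the second started at 9029124, with no replicate 1 cluster between them. Replicate 2 bridged this place with gaps of at most 10 kb. The higher count in replicate 2 was therefore not only a finer splitting of the same sequence.

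Along the arm, the clusters fell into dense and sparse stretches that both replicates showed. The interval was divided into 44 full windows of 500 kb, counted from the distal limit, and a last short window of 243557 bp with 2 clusters in each replicate. The number of clusters per full window ran from 0 to 29 with a median of 11 in replicate 1 and from 1 to 21 with a median of 8 in replicate 2. The combined set had from 2 to 59 clusters per window, with a median of 20. Replicate 1 had the higher count in 26 windows, replicate 2 in 11, and 7 were equal. The median difference between the replicates was 2 clusters and the largest was 8. Across the 44 windows the replicate counts had a Spearman correlation of 0.838, and the points share the assembly and the 2 libraries. Counts in neighbouring windows were only weakly related, with a Spearman correlation of 0.183 over 43 neighbouring pairs. The variance of the counts was 3.64 times their mean in replicate 1 and 2.67 times in replicate 2.

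**Figure D2:**
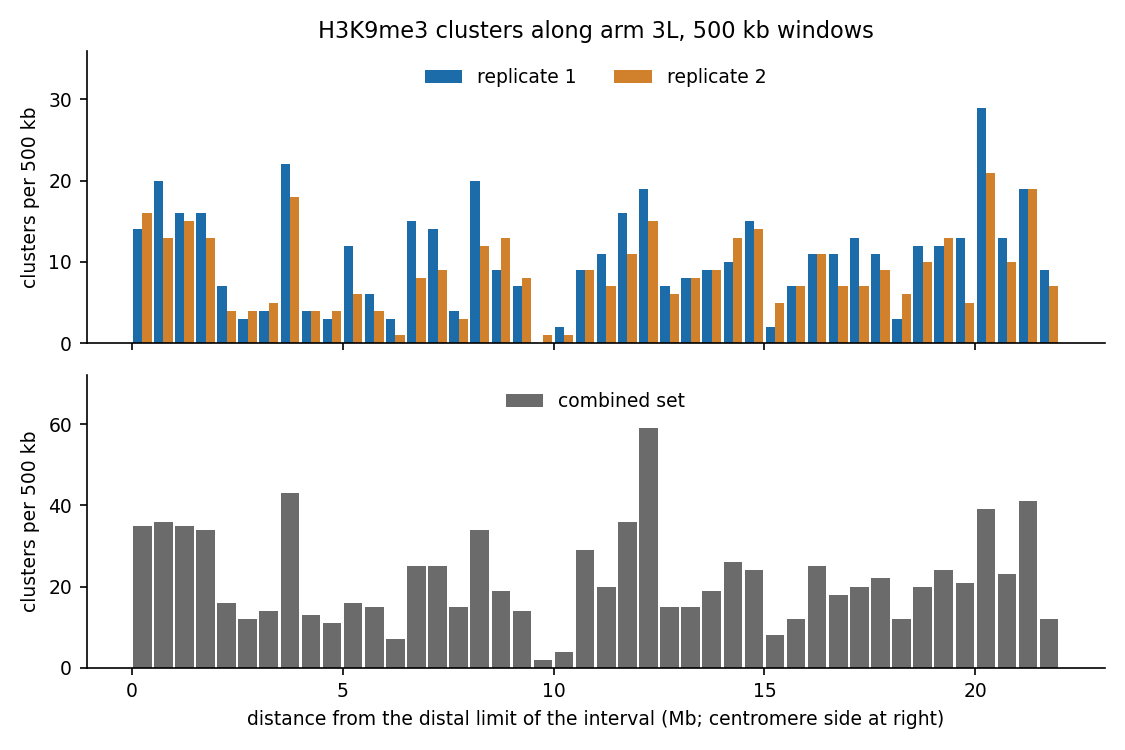
Clusters per 500 kb window (y axis) against distance from the distal limit of the interval (x axis, Mb, centromere side at right), for replicates 1 and 2 in the upper panel and the combined set in the lower panel. Both replicates peak in the same window on the centromere side, with 29 and 21 clusters, and the combined set peaks in another window, with 59.

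The 5 densest windows by the mean of the replicates held 109 clusters (23.1%) of replicate 1 and 86 (21.9%) of replicate 2. The densest was 20300001 to 20800000, where replicate 1 had 29 clusters, replicate 2 had 21 and the combined set had 39. It was also the most covered, at 14.9% and 12.0% in the replicates. Next were 3800001 to 4300000 with 22 and 18 clusters, 21300001 to 21800000 with 19 in both, 12300001 to 12800000 with 19 and 15, and 800001 to 1300000 with 20 and 13. Ranked by covered length, 3 of these 5 stayed among the top 5, and the windows 1300001 to 1800000 (9.94% and 8.18%) and 1800001 to 2300000 (9.20% and 7.55%) came in. Ranked within each replicate alone, the replicates shared 2 of their 5 densest windows and 6 of their 10 densest. Ties at the cut mean that these counts depend on how ties are broken. Of the 44 windows, 5 had at least 15 clusters in both replicates and 9 had at most 5 in both.

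Inside the densest window the clusters were drawn together further. The 100 kb from 20400001 to 20500000 held 10 clusters in replicate 1 and 8 in replicate 2. It was 29.8% and 27.9% covered, and 44.8% covered in the combined set. The 100 kb from 20700001 to 20800000, at the other end of the same window, held 2 and 1 clusters and was 3.64% and 1.23% covered. In this window 21 of 29 replicate 1 clusters had a match of at least 1 bp in replicate 2, where 75.3% did over all sequences. The reverse held for 20 of 21 replicate 2 clusters, where 79.0% did over all sequences. In the window 3800001 to 4300000 the clusters were more evenly spread, with 3 to 7 in each 100 kb of replicate 1 and 2 to 7 in each of replicate 2.

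The distal part of the interval was dense over 2 Mb. Its first 4 windows, from 300001 to 2300000, held 66 clusters in replicate 1 and 57 in replicate 2, or 30.8 per Mb ± 3.18. The next 3 windows, from 2300001 to 3800000, held 14 and 13, or 9.00 per Mb ± 0.47. The dense window from 3800001 to 4300000 followed, at 40.0 per Mb ± 5.66, and beyond it the 1 Mb from 4300001 to 5300000 held 7 and 8 clusters. These stretches were picked out after their counts were seen. The sparsest stretch was 9800001 to 10800000, with 2 clusters in each replicate and 6 in the combined set; it holds the whole of the longest interval free of clusters in both replicates, 9837936 to 10751162. The next longest free intervals were 13512437 to 13841652 (329216 bp) and 6368849 to 6609100 (240252 bp), and the combined set had 3 clusters in each.

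No steady gradient ran along the arm. In 4 parts of equal length, in order from the distal limit, replicate 1 had 122, 90, 116 and 144 clusters and replicate 2 had 102, 69, 109 and 113. The part from 5860890 to 11421778, next to the distal one, had the fewest clusters in each of the 3 lists and was 3.25% ± 0.55 covered. The part on the centromere side was 5.09% ± 0.86 covered, the distal one 4.70% ± 0.62 and the remaining one 4.63% ± 0.43. Within a library, in order from the distal part, these 3 were 5.14%, 4.94% and 5.70% covered in replicate 1 and 4.26%, 4.33% and 4.48% in replicate 2. The rank correlation of the window means with position was 0.101 over the 44 windows. Median scores differed little between the 4 parts, from 0.588 to 0.648 in replicate 1 and from 0.614 to 0.643 in replicate 2.

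The replicates agreed on most of the wide clusters and on fewer of the narrow ones. An overlap of at least 1 bp was taken as a match. In replicate 1, 284 of 472 clusters (60.2%; Wilson 95% interval 55.7% to 64.5%) had a match in replicate 2, where 75.3% did over all sequences. In the other direction, 288 of 393 clusters (73.3%; 68.7% to 77.4%) had a match, where 79.0% did over all sequences. These intervals treat clusters as independent, which neighbours are not. The replicates shared 0.616 of the 1.35 Mb covered in either, a Jaccard index of 0.456. Joined across replicates, the clusters formed 565 loci, of which 272 (48.1%) were in both, 188 (33.3%) in replicate 1 alone and 105 (18.6%) in replicate 2 alone. Shares of joined loci were not computed over all sequences, so these have no background to be read against.

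By width, 28 of the 91 replicate 1 clusters under 1.5 kb (30.8%, interval 22.2% to 40.9%) had a match in replicate 2. The share was 53.3% from 1.5 to 2 kb, 72.7% from 2 to 3 kb and 84.2% from 3 to 5 kb, and all 16 clusters of at least 5 kb were found. For replicate 2 the shares were 60.7% under 1.5 kb (51 of 84, 50.0% to 70.5%), 61.0%, 87.9% and 90.7%, and 11 of the 12 widest were found. Between the 2 lists the shares lay furthest apart in the narrowest class, a description of these libraries with no test.

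**Figure D3:**
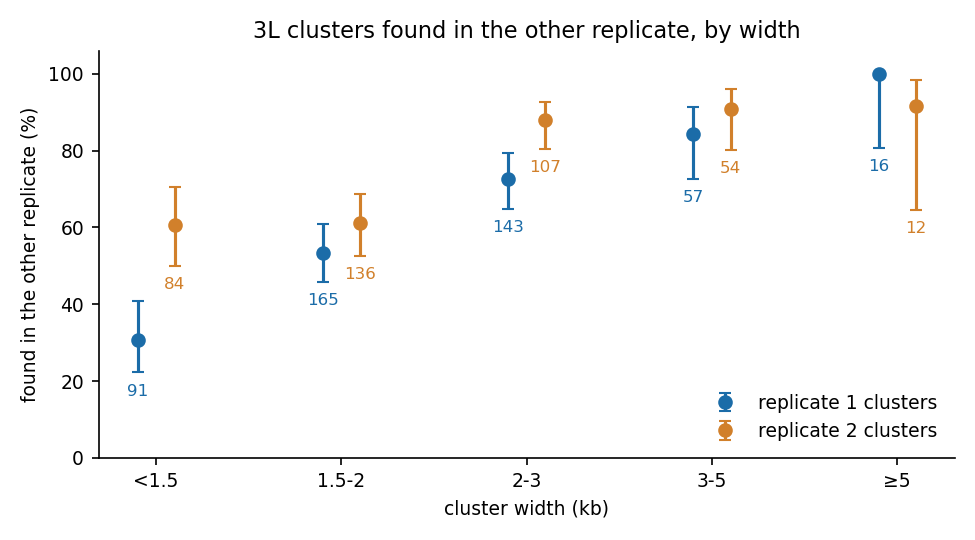
Share of 3L clusters found in the other replicate (y axis, %) by cluster width (x axis, kb), for the clusters of replicate 1 and of replicate 2. Points are shares, bars are Wilson 95% intervals and the numbers give the clusters in each class; the share was 30.8% for replicate 1 clusters under 1.5 kb and 16 of 16 for those of at least 5 kb.

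Score followed sharing less simply. In replicate 2 the share found in 4 equal groups ordered by score, from the lowest, was 55.1%, 70.4%, 79.6% and 87.9%. In replicate 1 it was 52.5% in each of the 3 lower groups (62 of 118 clusters each) and 83.1% in the highest. Among replicate 1 clusters under 2 kb, 19 of 59 (32.2%, interval 21.7% to 44.9%) with a score at or above the list's median were found, against 97 of 197 (49.2%, 42.3% to 56.2%) with a lower score. In replicate 2 the same shares were 35 of 54 (64.8%) and 99 of 166 (59.6%). The highest-scoring cluster of each replicate, with scores of 2.14 and 2.75, was not found in the other. Of the clusters with a score of at least 1, 14 of 15 (93.3%) in replicate 1 and 17 of 23 (73.9%) in replicate 2 were found in the other. Over all members the shares were 60.2% and 73.3%, so in replicate 2 the high-scoring clusters were near the whole list.

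Place along the arm made less difference to sharing than width did. The share found was between 58.6% and 62.2% in the 4 parts of the interval for replicate 1 and between 66.1% and 81.2% for replicate 2. In the 5 densest windows it was 59.6% in replicate 1 and 76.7% in replicate 2, against 60.3% and 72.3% elsewhere. In runs it was 66.0% in replicate 1 (101 of 153), against 57.4% outside them, and in replicate 2 it was 90 of 120 clusters, against 198 of 273 (72.5%) outside. Clusters that the other replicate lacked were not always far from its clusters. The nearest cluster of replicate 2 lay a median of 11953 bp from the 188 unmatched replicate 1 clusters and within 10 kb of 88 of them. For the 105 unmatched replicate 2 clusters the median was 8243 bp, and 55 lay within 10 kb of a replicate 1 cluster. Neighbours this near were common in general: within their own list, only 41.7% of replicate 1 and 49.1% of replicate 2 clusters stood alone at 10 kb. Whether unmatched clusters lay nearer than other places on the arm was not tested. Of the unmatched clusters, 98.4% in replicate 1 and 98.1% in replicate 2 overlapped a cluster of the combined set. Over all members the shares were 99.4% and 99.5%, so nearly every replicate cluster overlapped that set, matched or not.

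Matched clusters lay close together in place, which is partly built in, because only overlapping clusters were paired. Matched loci with more than 1 cluster of a replicate, 24 in all, were left out. In 248 loci a single cluster of each replicate overlapped. Their midpoints were a median of 151 bp apart, and 196 pairs (79.0%) were within 500 bp. The median offset was 209 bp at the starts and 180 bp at the ends, and the overlap was a median of 0.810 of the joint length. The scores of the pairs had a Spearman correlation of 0.708 and the widths one of 0.541 over the 248 pairs, as a description of these 2 libraries. The score was higher in replicate 2 in 148 pairs (59.7%), and the cluster was wider in replicate 1 in 145 pairs (58.5%).

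**Figure D4:**
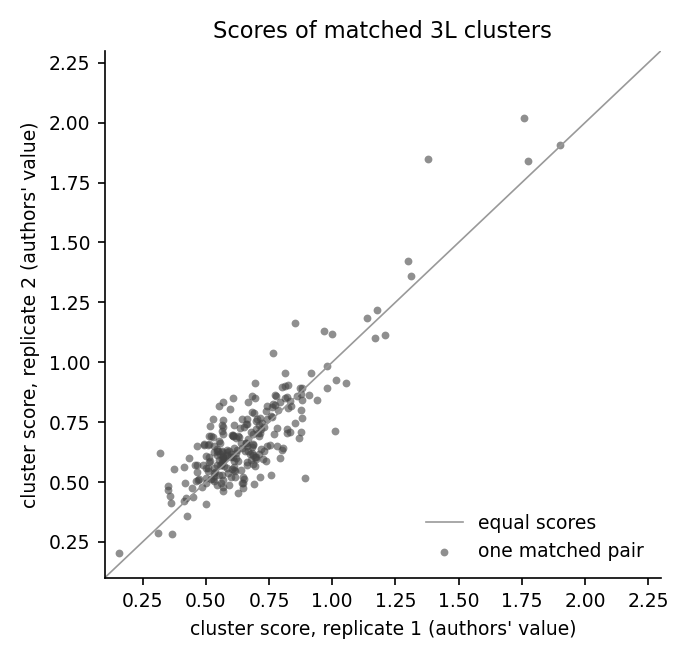
Cluster score in replicate 2 (y axis) against replicate 1 (x axis), both the authors' values with no stated scale, for the 248 loci with a single overlapping cluster in each replicate; each point is 1 locus and the line marks equal scores. In 231 of the 248 loci both scores were below 1, and 148 points lie above the line.

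The 5 combined-set clusters with the highest mean replicate score among those found in both are the strongest shared sites of the interval by this measure, taking the highest score of the overlapping clusters in each replicate. The first lay from 5452271 to 5459980 (7710 bp), with scores of 1.90 in replicate 1 and 2.02 in replicate 2. The second, from 20470071 to 20479591, is in the densest window and had scores of 1.78 and 1.84. In that place replicate 1 had a cluster of 7582 bp starting at 20470169 and replicate 2 a cluster of 7599 bp starting at 20470137. The others were 11961398 to 11965579 (1.38 and 1.85), 16358078 to 16361153 (1.30 and 1.42) and 22092841 to 22096025 (1.31 and 1.36). The last 2 measured 3076 and 3185 bp, and the replicates covered 96.0% ± 0.94 and 93.3% ± 0.42 of them.

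Among the widest clusters, replicate 1 had its widest from 1758792 to 1771783 (12992 bp, score 1.14). Replicate 2 had 2 clusters there, the wider of them its own widest, from 1763178 to 1771605 (8428 bp, score 1.10). The other 4 widest of replicate 1 were between 7297 and 7899 bp and each overlapped at least 1 cluster of replicate 2. The other 4 widest of replicate 2 were between 7029 and 7945 bp and each overlapped at least 1 cluster of replicate 1. In the combined set the 5 widest measured from 10133 to 13537 bp, and the replicates covered between 68.4% ± 18.4 and 95.5% ± 5.73 of them.

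The combined set listed many narrow clusters that neither replicate had. Of its 969 members, 266 (27.5%, against 37.8% over all sequences) matched both replicates, 176 (18.2%) matched replicate 1 and not replicate 2, 98 (10.1%) the reverse, and 429 (44.3%, against 38.7% over all sequences) matched neither. The median width was 3009 bp for clusters found in both and 1293 bp for those found in neither, and the median score was 0.545 and 0.415. The narrowest member was 1001 bp in the combined set and 1301 bp in each replicate, above the median of those found in neither. How far the contrast by width reflects these unequal limits was not tested. Of the 351 combined clusters under 1.5 kb, 0 were found in both replicates and 308 (87.7%) in neither; of the 55 of at least 5 kb, 49 (89.1%) were found in both and 0 in neither. Clusters found in neither made up 27.9% of the cluster sequence of the combined set. They stood in runs of the combined set slightly more often, at 59.2% against 55.3% for clusters found in both, a difference that was not tested.

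**Figure D5:**
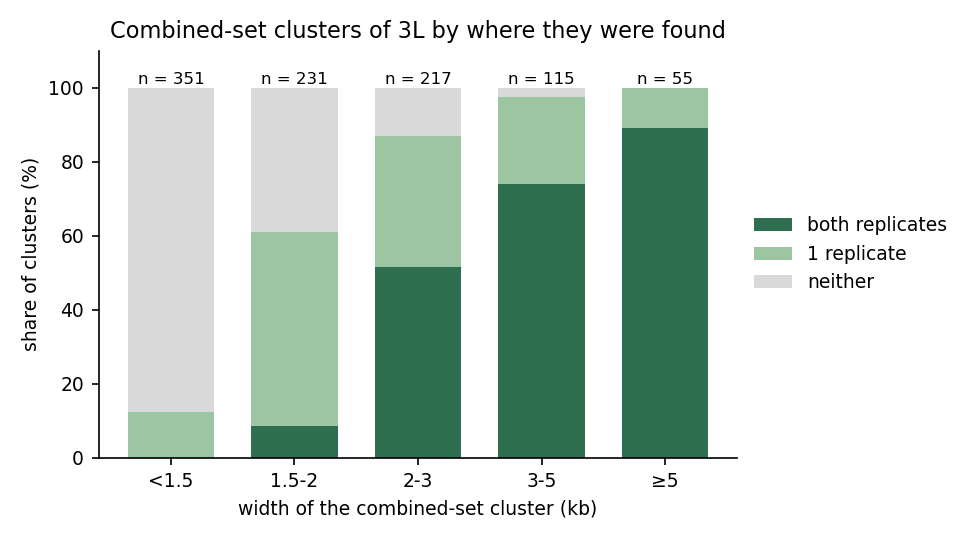
Share of the combined-set clusters of 3L (y axis, %) found in both replicates, in 1 replicate or in neither, by cluster width (x axis, kb), with the number of clusters above each bar. The share found in both is 0% under 1.5 kb and 89.1% at 5 kb or more.

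A score of at least 1 was given to 27 members of the combined set. Of these, 9 were found in both replicates, 5 in 1 of them and 13 in neither, where 266 of all 969 members were found in both and 429 in neither. The shares of the high-scoring members were thus near those of all members. The 3 highest-scoring members, 404134 to 405140 (score 2.48), 17913000 to 17914004 (2.42) and 1424832 to 1426322 (2.11), were 1007, 1005 and 1491 bp wide and were found in neither replicate. The first 2 were narrower than any member of either replicate. The fourth, 5108583 to 5110583 (1.86), was found in replicate 1 alone, where it was the highest-scoring cluster, and the fifth, next to it from 5106431 to 5107750 (1.78), was found in neither. How the combined set was made and scored is not given in the sources used here.

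The gain of the combined set over the replicates was uneven along the arm. Per window it had a median of 2.24 times the replicate mean. The highest ratio, 4.29 times, was in the sparse window 7800001 to 8300000, with 4 and 3 replicate clusters and 15 in the combined set. Higher ratios tended to lie in windows with fewer replicate clusters, with a Spearman correlation of -0.454 across the 44 windows between the ratio and the replicate mean that it is divided by. Over all sequences, 38.7% of combined clusters were found in neither replicate and 37.8% in both. In the window 12300001 to 12800000, the densest of the combined set, 34 of 59 clusters (57.6%) were found in neither replicate and 7 (11.9%) in both. That window holds the largest run of the combined set, 25 clusters over 99502 bp from 12589905 to 12689406, where replicate 1 had 7 clusters and replicate 2 had 5, covering 11.7% and 9.28% of the stretch. In the replicates' densest window, 20300001 to 20800000, 13 of 39 combined clusters (33.3%) were found in neither and 18 (46.2%) in both.

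Arms 2L and 3R and the X, with the same lengths left out at both ends, were set beside 3L. Arm 2R was not included in this comparison. No test was made, because the arms come from the same 2 libraries and clusters are not replicates. Arm 3L had 19.4 clusters per Mb ± 2.51, 2L had 20.2 ± 2.15, 3R had 18.9 ± 2.18 and the X had 36.1 ± 1.79. The SD is between libraries that all arms share, so the arms are also given within each library. In replicate 1 there were 21.7 clusters per Mb for 2L, 21.2 for 3L and 20.5 for 3R, and in replicate 2 there were 18.7, 17.7 and 17.4, the same order in both. Median widths were 1917 bp ± 24.0 for 3L, 1946 ± 6.01 for 2L, 1871 ± 1.77 for 3R and 1963 ± 31.8 for the X. The share of clusters in runs was 31.5% ± 1.33 for 3L, 35.2% ± 3.69 for 2L, 29.5% ± 1.41 for 3R and 47.4% ± 0.02 for the X, where clusters are denser. The share of replicate 1 clusters found in replicate 2 was 60.2% for 3L, 62.4% for 2L, 59.2% for 3R and 64.6% for the X. In the other direction it was 73.3%, 71.1%, 69.7% and 70.3%, in the same order of arms. The variance of counts per 500 kb was 3.15 ± 0.68 times the mean for 3L, 2.35 ± 0.04 for 2L, 3.38 ± 0.19 for 3R and 2.63 ± 0.06 for the X.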

How the data were processed

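Per the submitters' processing notes, Bowtie 0.12.7 aligned the reads. The authors deposited lists of enriched clusters on FlyBase release 5, per the file headers, 1 for each ChIP library and 1 for the series. A cluster is given by its limits and a score that the authors deposited with no stated scale. Not given in the sources used here are the cluster caller, its threshold, the use of the inputs and the making of the combined set. Bulk heads were profiled, so fewer marked cells and a weaker mark in each cell cannot be told apart.

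The lists were read with Python 3.11.15, and values were computed with numpy 2.4.6, pandas 2.3.3 and scipy 1.17.1, with figures from matplotlib 3.10.9. Replicate values are given as mean ± SD over 2 libraries. No test was run: with 2 libraries of 1 group the design has no contrast between samples. The overlap and run code was tested on simulated data, where 250 of 250 planted shared clusters and 20 of 20 planted runs were recovered. Members, limits and the rules for naming were chosen with earlier results of these data known. The regions named were the 5 densest windows and the sparsest, the 5 largest shared runs of replicate 1, the 5 widest clusters of each list, the combined set's 5 highest-scoring clusters, the 5 shared ones with the highest mean replicate score, and the 3 longest free intervals. No gene is named, because the gene table used here follows another release.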

Additional observations from a re-analysis of the deposited data

How the results depend on the processing

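The 11 main values were recomputed under 15 settings, giving 88 values, of which 55 were counted as unchanged and 33 as moved. Unchanged meant within the replicate SD, the Wilson interval or 1.5 times a count. For the share found in the other replicate, the SD was that of its 2 directions. The Jaccard index and the rank correlation had no tolerance, so any change counted as moved. These counts are no measure of stability, because some settings could not move some values. A minimum width of 1 kb and counting clusters that only touch the interval changed nothing, since no cluster was affected. When each list was limited to members scoring no lower than its median, there were 216.5 clusters per replicate covering 2.70%, with a median width of 2318 bp and a median gap of 46964 bp; 15.4% were in runs, 24.3% in the 5 densest windows and 25.9% in the most proximal of 4 equal parts (the proximal part below), the Jaccard index was 0.433 and the rank correlation of window counts between replicates 0.886. Joining clusters up to 1 kb apart gave a median width of 1995 bp, a median gap of 26594 bp, 22.4% in runs, a Jaccard index of 0.459, a rank correlation of 0.883 and 39.8% of combined clusters in neither replicate. With the interval ending 4 Mb from the centromere end, 26.8% of clusters were in its proximal part, the Jaccard index was 0.457 and the rank correlation 0.816. Runs with gaps of 5 or 20 kb held 20.8% or 51.0% of clusters. The rank correlation of window counts was 0.857 with windows shifted by 250 kb, 0.842 with 250 kb windows and 0.906 with 1 Mb windows. An overlap of 50% of both widths left 56.2% of clusters found in the other replicate and 48.9% of combined clusters in neither. The combined set, used instead of the replicates, had 969 clusters covering 9.64%, with a median width of 1786 bp and gap of 7069 bp, 56.9% in runs and 25.5% in the proximal part.

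Leaving out a replicate gave 393 to 472 clusters, 3.98% to 4.85% coverage, a median width of 1900 to 1934 bp, a median gap of 17353 to 22047 bp, 30.5% to 32.4% in runs, 22.6% to 23.3% in the densest windows, 28.8% to 30.5% in the proximal part, and 54.4% to 62.4% of combined clusters not found in the replicate kept. With 2 libraries each single value lies within their SD of the mean by construction. For the values judged by the SD, leaving out a replicate was therefore no check, except for the densest windows, which were ranked anew. The cause of the larger shifts was not tested. No paired analysis was possible because the inputs that share replicate numbers with the ChIP libraries have no cluster lists. Depth is unknown, so clusters missed for want of reads cannot be counted.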
